A study of Homo sapiens with 4 samples.

Results

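The 10 genes described here stand for serum response factor (SRF) and the actin cytoskeleton it is known to control: SRF itself, the cytoplasmic actins ACTB and ACTG1, the tropomyosins TPM1 and TPM2, the myosin light chain MYL9, the filament-binding proteins TAGLN and CNN1, and the anchoring and crosslinking proteins VCL and FLNA. They were chosen by symbol from a named list, and 10 of 10 were found among the 30863 genes of the deposited table. Poly(A)-selected RNA came from HepG2, an established line of human liver tumour cells, labelled as hepatoblastoma and wild type in genotype. The AMF group (amentoflavone, a plant biflavonoid) and the group given the solvent DMSO have 2 libraries each, numbered as replicates 1 and 2, both taken at 48 h. According to the treatment protocol the cells received 90 µM AMF, but the series' design names Tub B at 80 µM, which leaves agent and dose in doubt. Below, AMF is used as a group name, as in the sample titles. The labels do not state whether replicates come from separate cultures, and the p-values cover only library-to-library spread, possibly a technical one.

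SRF is a transcription factor that binds DNA at a motif called the CArG box. Its cofactors of the MRTF family are held back by unpolymerized actin and enter the nucleus when actin is built into filaments, so that many genes of the filament system are driven by the state of that system. A second set of partners, the ternary complex factors ELK1, ELK3 and ELK4, links SRF to growth factor signals and to immediate early genes such as FOS and EGR1. In epithelial and liver cells the actin cortex and stress fibres carry adhesion and shape, whereas TAGLN and CNN1 are best known from smooth muscle.

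The CArG box was searched in the window from 250 bases before to 50 after each gene start, in RefSeq promoters of build GRCh38.p14, and its consensus reads the same on both strands. Windows were held for 7 of the 10 genes, and 3 of the 7 had at least 1 box, against 1.60% of the 27305 genes that have a window (1.29% of 35116 windows). The 3 were SRF and ACTG1, which fell in AMF, and FLNA, which rose. They are shown to set these motifs beside the changes given below, together with TPM1, the gene with a window that rose by most. The SRF window lies at chr6:43171019-43171318 on the plus strand and holds boxes that begin 30 and 10 bases upstream of the gene start. A further SRF window at chr6:43172146-43172445 held 0 boxes. The ACTG1 window lies at chr17:81512750-81513049 on the minus strand, with its box beginning 94 bases upstream. The FLNA window lies at chrX:154374585-154374884 on the minus strand, with its box also beginning 94 bases upstream. The TPM1 window at chr15:63048239-63048538 on the plus strand held 0 boxes, which says only that the motif is not in this window. Capitals mark the CArG boxes.
SRF: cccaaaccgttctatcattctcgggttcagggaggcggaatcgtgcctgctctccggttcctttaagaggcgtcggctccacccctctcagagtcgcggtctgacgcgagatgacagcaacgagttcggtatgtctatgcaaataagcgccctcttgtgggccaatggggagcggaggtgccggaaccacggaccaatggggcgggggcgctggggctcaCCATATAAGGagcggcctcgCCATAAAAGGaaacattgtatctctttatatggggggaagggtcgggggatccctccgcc
ACTG1: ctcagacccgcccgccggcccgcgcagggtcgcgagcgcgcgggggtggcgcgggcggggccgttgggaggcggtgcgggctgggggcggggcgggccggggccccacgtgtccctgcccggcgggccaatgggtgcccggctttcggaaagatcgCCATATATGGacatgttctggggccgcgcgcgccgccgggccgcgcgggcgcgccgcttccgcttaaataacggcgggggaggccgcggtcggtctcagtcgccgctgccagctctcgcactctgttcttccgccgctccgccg
FLNA: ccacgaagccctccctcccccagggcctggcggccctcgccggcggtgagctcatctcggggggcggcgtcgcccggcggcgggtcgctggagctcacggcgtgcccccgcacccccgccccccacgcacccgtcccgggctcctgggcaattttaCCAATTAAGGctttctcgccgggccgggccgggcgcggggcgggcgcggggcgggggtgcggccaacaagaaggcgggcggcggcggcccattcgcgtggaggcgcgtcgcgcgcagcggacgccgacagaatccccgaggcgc
TPM1: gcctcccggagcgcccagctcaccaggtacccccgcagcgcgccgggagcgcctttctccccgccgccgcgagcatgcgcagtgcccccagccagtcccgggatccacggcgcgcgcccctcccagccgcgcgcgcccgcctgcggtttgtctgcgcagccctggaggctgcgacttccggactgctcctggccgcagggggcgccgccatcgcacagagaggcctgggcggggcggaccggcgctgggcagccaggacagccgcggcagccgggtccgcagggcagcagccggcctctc
A motif match is a description and does not show that SRF was bound there. Across the table, 180 tested genes had a box in a window, of which 42 rose and 52 fell (52.2% called). Among the 12015 tested genes with a window, 43.5% were called. The difference was not tested, and the sets were not matched for expression level. Genes were matched to windows by symbol, so those listed under an older symbol can be missed. The median log2 change was 0.036 for genes with a box and 0.007 for all genes with a window.

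Libraries held 24226586 to 26966210 reads counted in genes, and 7 of 7 hepatocyte markers were present, with ALB, the serum albumin gene, at 122920 and 116050 normalized counts in AMF and 125340 and 117300 in DMSO. Values below are normalized counts (reads divided by a size factor per library), and changes are log2 fold changes of AMF over DMSO on the log2(normalized count + 1) scale, tested with limma across 23828 genes. A gene is said to rise or fall where its adjusted p was under 0.05. The share of reads from mitochondrially encoded genes was higher in AMF, at 9.53% and 9.61% against 7.73% and 7.69% in DMSO, and its part in the results was not tested. More genes had reads in AMF, 25985 and 25632, than in DMSO, 23929 and 24108. Genes with a few reads in AMF and 0 in DMSO are to be read beside this.

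Of the 10 genes, 5 rose in AMF, TAGLN, MYL9, TPM1, ACTB and FLNA, and SRF and ACTG1 fell. TPM2, VCL and CNN1 did not pass. In bulk RNA a change in the share of cells that express a gene and in its RNA per cell cannot be told apart. Calls were common in this comparison: 31.8% of all tested genes passed, 15.6% as higher and 16.2% as lower in AMF. Among the 11137 genes averaging at least 100 normalized counts, where 8 of the 10 genes lie, 54.7% passed, 23.6% as higher and 31.1% as lower. With a log2 change of at least 1 either way, 7.02% of all tested genes passed, and TAGLN alone of the 10. Of these 8, 6 passed, and that count is to be read against the 54.7%. TAGLN, which passed, and CNN1 average under 100. The median log2 change was 0.088 over the 10 genes, 0.035 over all genes tested and -0.04 over those averaging at least 100. The medians of the lists below are to be read beside the last 2. AMF and DMSO libraries did not overlap for 9 of the 10, VCL being the exception, and 63.4% of all tested genes had groups that did not overlap. With either AMF library left out, limma-trend called 0 of the 10 genes and 0 of all genes. The prior degrees of freedom were then 0.995 and 1.003 in place of 11.9, and 6575 and 6387 of all genes had an unadjusted p under 0.05. Limma with voom weights on the recovered reads called 7 of the 10 with all libraries, 1 without AMF replicate 1 (MYL9) and 0 without AMF replicate 2, when 7 and 7 had an unadjusted p under 0.05. Without DMSO replicate 1 limma-trend called 5, and without DMSO replicate 2 it called 4.

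**Figure D1:**
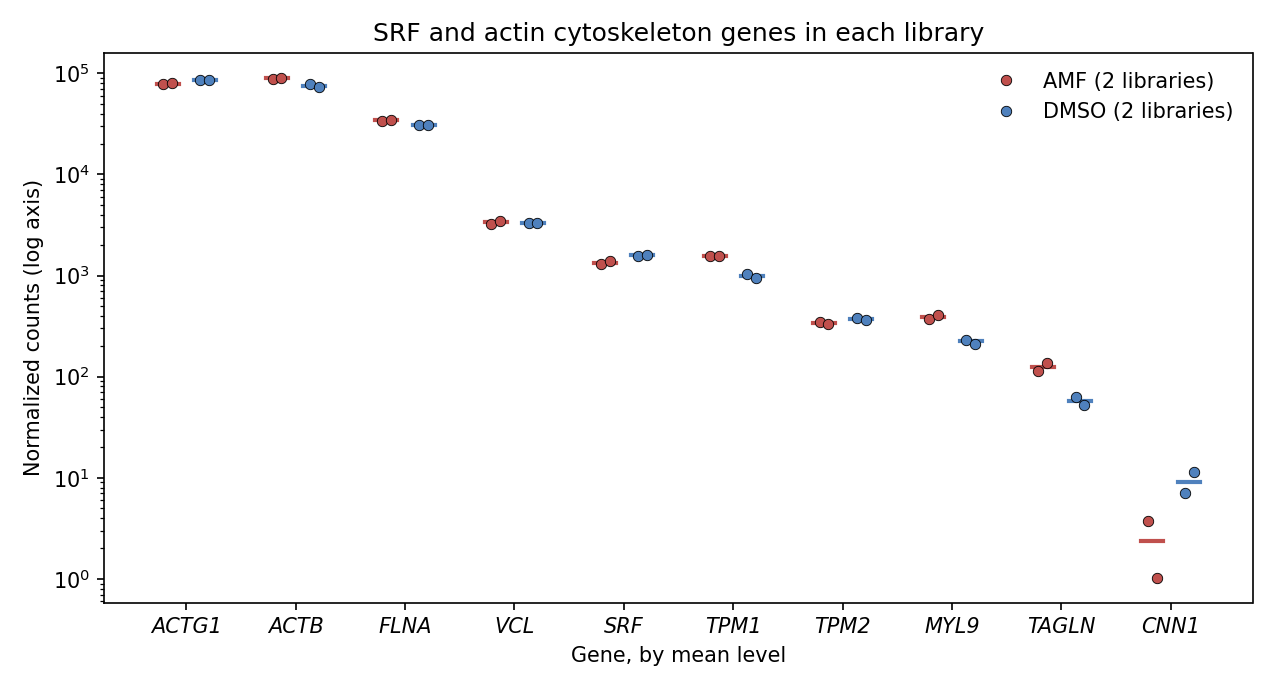
Normalized counts (log axis) of the 10 genes in each library, ordered by mean level, with AMF left of DMSO; points are libraries and bars are group means of 2. The AMF points of TPM1, MYL9 and TAGLN lie above the DMSO points, those of VCL overlap, and CNN1 lies near the lowest counts, with 1 to 11 reads a library.

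The transcription factor SRF had 1300.0 and 1382.5 normalized counts in AMF replicates 1 and 2, against 1570.4 and 1614 in DMSO replicates 1 and 2. Both AMF libraries were below both DMSO libraries. The log2 change was -0.25 (SE 0.0606, adjusted p = 0.00546), which corresponds to 0.842 times the DMSO level. SRF did not pass in any limma-trend fit with 1 library left out (adjusted p = 0.15 and 0.124 without AMF replicates 1 and 2, and 0.0834 and 0.11 without DMSO replicates 1 and 2), while its log2 change stayed between -0.29 and -0.20. Among 11136 other genes averaging at least 100 normalized counts, the nearest to SRF in its pattern over the 4 libraries were MCU, a pore subunit of the mitochondrial calcium uniporter, AEBP2, a component of Polycomb repressive complexes, and DEPDC1B. Their centred log2 values differed from those of SRF by a root mean square of 0.0055, 0.0077 and 0.0084, and their log2 changes were -0.25, -0.26 and -0.23. With 4 libraries in 2 groups this likeness is mostly that of the change itself.

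Of 9 genes for partners of SRF, 7 were tested, 1 rose, 4 fell and 2 did not pass, with a median log2 change of -0.22. Lower calls made up 16.2% of all tested genes and 31.1% of those averaging at least 100, and the difference of this small list from them was not tested. MRTFB (MKL2 in the table), an actin-sensing coactivator, had 1413 and 1392 normalized counts in AMF and 1982 and 1915 in DMSO, a log2 change of -0.47 (SE 0.0567, adjusted p = 1.38e-05). MRTFA (MKL1 in the table), the related coactivator, had 994.5 and 1002 in AMF against 1151 and 1168 in DMSO (-0.22, SE 0.0634, adjusted p = 0.0173). Both MRTF genes were thus lower in both AMF libraries. SCAI, which encodes a protein that suppresses MRTF activity, also fell, with 234 and 229 in AMF and 370 and 405.5 in DMSO (-0.74, SE 0.105, adjusted p = 6.92e-05). The ternary complex factor ELK4 fell by 0.23 on the log2 scale (adjusted p = 0.0124). ELK1 had 97.5 and 89.6 in AMF and 115 and 102 in DMSO and did not pass (-0.21, adjusted p = 0.415), and ELK3 had a log2 change of 0.003 (adjusted p = 0.985). FHL2, a LIM-domain protein that binds SRF, was the partner that rose, with 378 and 412 in AMF and 199.9 and 211.5 in DMSO (0.94, SE 0.108, adjusted p = 9.74e-06). ABRA, an actin-binding activator of this pathway, had 3 and 1 reads in AMF and 0 in both DMSO libraries and was below the filter. Exons of MRTFA, MRTFB, SCAI, ELK3, ELK4 and FHL2 overlap those of other genes, and the libraries keep no strand.

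The cytoplasmic actins moved in opposite directions. ACTB, beta-actin, had 88417 and 89830.5 normalized counts in AMF replicates 1 and 2, against 78096 and 72951 in DMSO replicates 1 and 2. The log2 change was 0.24 (SE 0.0367, adjusted p = 1.36e-04), or 1.18 times the DMSO level. ACTG1, gamma-actin, had 77503 and 79340.4 in AMF, against 86719.5 and 86307.5 in DMSO. The log2 change was -0.14 (SE 0.032, adjusted p = 0.00311), or 0.906 times the DMSO level. ACTB counts were thus above ACTG1 counts in both AMF libraries and below them in both DMSO libraries. Per kilobase of exon, with all annotated exons joined, ACTB stayed below ACTG1 in every library. It was 0.970 and 0.963 times ACTG1 in AMF and 0.766 and 0.719 times in DMSO. These joined lengths, 3519 bases for ACTB and 2993 for ACTG1, can exceed those of the transcripts. Which actin is higher in AMF therefore depends on the lengths used. Within a library the ratio of ACTB to ACTG1 counts was 1.14 and 1.13 in AMF and 0.901 and 0.845 in DMSO. The mean ratio was 1.14 ± 0.00608 in AMF and 0.873 ± 0.0391 in DMSO (SD, n = 2 each), with exact two-sided permutation p = 0.333, the smallest that 2 against 2 libraries allow. Added together, the 2 actins came to 165920.2 and 169171 normalized counts in AMF and 164815 and 159258 in DMSO, so the AMF sum was 1.03 times the DMSO sum. Actin reads made up 0.663% and 0.678% of all reads in AMF and 0.646% and 0.631% in DMSO. Without 1 library, the fall of ACTG1 did not pass in any limma-trend fit (adjusted p = 0.346 and 0.31 without AMF replicates 1 and 2, 0.0588 and 0.0573 without DMSO replicates 1 and 2). The rise of ACTB did not pass without AMF replicate 1 or 2 (adjusted p = 0.247 and 0.286). The direction of both held in every such fit. Both genes have many processed pseudogenes. The 11 actin pseudogenes with rows in the table held 75 and 65 reads in AMF and 24 and 32 in DMSO in all, against 71056 or more for either gene in each library, but how reads that match several places were counted is not given in the sources used here.

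**Figure D2:**
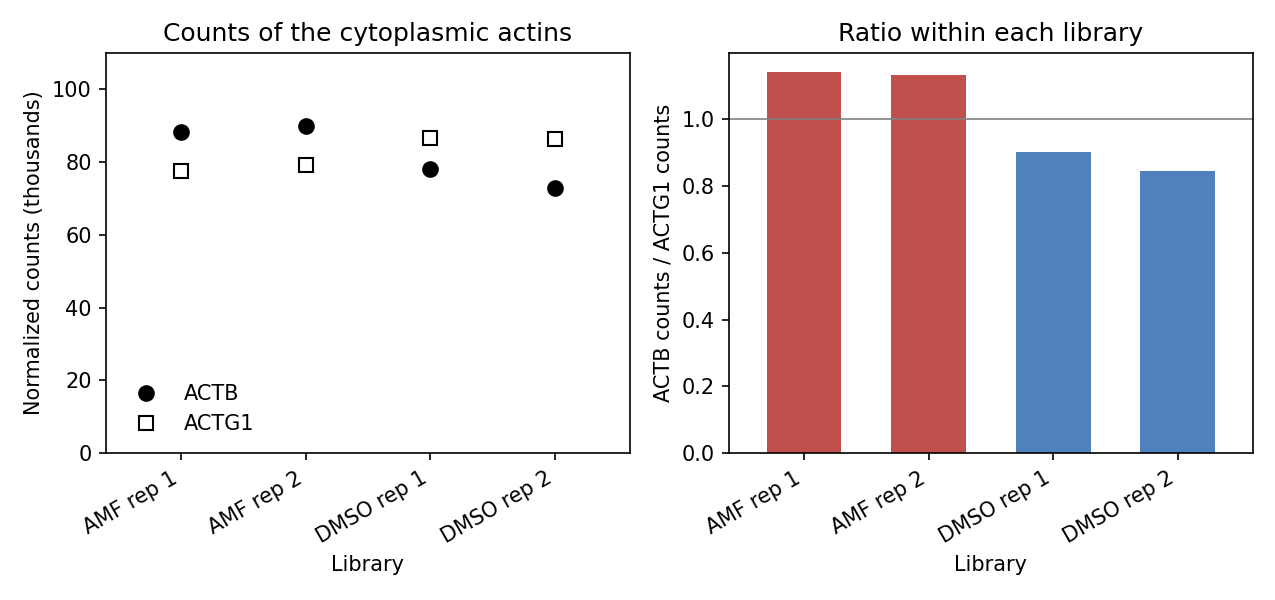
Normalized counts of ACTB and ACTG1 in each library (left) and the ratio of ACTB to ACTG1 counts within the library (right, bars from 0, grey line at a ratio of 1). The ratio is 1.14 and 1.13 in the AMF libraries and 0.901 and 0.845 in the DMSO libraries. Counts are not corrected for exon length. Per kilobase, with all annotated exons joined, the ratio is below 1 in every library. Whether the ratio passes 1 in AMF therefore depends on the lengths used.

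Muscle-type actins were measured at far lower counts, with ACTA2 the highest of them. ACTA2, smooth muscle alpha-actin, had 1173 and 1200.1 normalized counts in AMF and 759.7 and 775 in DMSO, and rose by 0.63 on the log2 scale (SE 0.0663, adjusted p = 4.26e-06). Its exons overlap those of FAS and of an antisense RNA. ACTA1, skeletal alpha-actin, had 13 and 2 reads in AMF and 2 and 0 reads in DMSO and did not pass (adjusted p = 0.138). The cardiac actin ACTC1 and the enteric actin ACTG2 had 2 reads or fewer in every library.

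Tropomyosins, which lie along the actin filament and set access for myosin and other binders, differed among themselves. TPM1 had 1562 and 1576 normalized counts in AMF replicates 1 and 2, against 1034 and 936 in DMSO replicates 1 and 2. It rose by 0.67 on the log2 scale (SE 0.0663, adjusted p = 2.17e-06), or 1.59 times the DMSO level. TPM2 had 347 and 329 in AMF, against 379 and 365.5 in DMSO, so the AMF libraries lay below the DMSO libraries by a small gap. Its log2 change of -0.14 did not pass (SE 0.0967, adjusted p = 0.313), with a 95% interval from -0.35 to 0.07. The relatives TPM3 (0.20, adjusted p = 0.00252) and TPM4 (0.35, adjusted p = 8.49e-06) rose. TPM4 had 10321 and 10636 in AMF and 8235 and 8215 in DMSO. Without AMF replicate 1 or 2 the rise of TPM1 did not pass with limma-trend (adjusted p = 0.121 and 0.129), at log2 changes of 0.68 and 0.67. Exons of TPM1 overlap those of an antisense RNA.

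MYL9, a regulatory light chain of myosin II whose phosphorylation drives contraction, had 373 and 409 normalized counts in AMF, against 233 and 212.5 in DMSO. The groups stood well apart, and the log2 change was 0.81, SE 0.109, with adjusted p = 4.11e-05. This is 1.75 times the DMSO level. Without AMF replicates 1 and 2 its adjusted p with limma-trend was 0.111 and 0.127. The close relatives MYL12A and MYL12B, which encode the regulatory light chains used with nonmuscle myosin, rose as well, both with a log2 change of 0.52 (adjusted p = 2.37e-06 and 6.5e-07). The essential light chain MYL6 did not pass (-0.07, adjusted p = 0.364). Among the heavy chains, MYH9 did not pass (adjusted p = 0.95) and MYH10 fell (-0.54, SE 0.049, adjusted p = 9.13e-07).

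TAGLN, also called SM22 alpha, an actin-bundling protein abundant in smooth muscle, had the largest rise of the 10 genes. It had 113 and 135 normalized counts in AMF replicates 1 and 2, against 63.0 and 52.4 in DMSO replicates 1 and 2. The AMF libraries were above the DMSO libraries by a factor of 2.13, a log2 change of 1.09 (SE 0.197, adjusted p = 5.59e-04). On the deposited log2 values its change was 0.55 (limma adjusted p = 6.14e-04). Counting reads alone, the ratio was 2.14 with a 95% exact interval of 1.71 to 2.69 that covers counting error only. Its rise did not pass when either AMF library or the second DMSO library was left out (limma-trend adjusted p = 0.142, 0.179 and 0.0692). TAGLN exons overlap those of the protease gene PCSK7, which had 759 and 710 normalized counts in AMF and 750 and 706 in DMSO (0.01, adjusted p = 0.926). The relative TAGLN2 also rose, with 1366 and 1322 in AMF and 812 and 793 in DMSO (0.74, SE 0.0649, adjusted p = 6.45e-07), and TAGLN3 did not pass (0.91, adjusted p = 0.234).

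CNN1, calponin 1, which restrains myosin activity in smooth muscle, was close to absent. It had 4 and 1 reads in AMF and 7 and 11 reads in DMSO, and a floor of 3 reads is 2.79 to 3.09 normalized counts per library. The ratio of reads corrected for size factors was 0.268 with a 95% exact interval of 0.0777 to 0.749, for counting error only, and the limma test did not pass (adjusted p = 0.078). The widely expressed relatives CNN2 (0.03, adjusted p = 0.716) and CNN3 (-0.11, adjusted p = 0.0774) did not pass either.

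VCL, vinculin, which ties integrin adhesions and cadherin junctions to actin, had 3238 and 3459 normalized counts in AMF, against 3311 and 3289 in DMSO. The AMF libraries lay on either side of the DMSO libraries. The log2 change was 0.02, SE 0.0503, with adjusted p = 0.806 and a 95% interval from -0.09 to 0.13. Exons of VCL overlap those of AP3M1. CTNNA1, alpha-catenin, a related junction protein, rose (0.30, SE 0.038, adjusted p = 2.09e-05).

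FLNA, filamin A, which crosslinks actin filaments into networks, had 34115 and 34561 normalized counts in AMF, against 30850.5 and 30787 in DMSO. Its exons overlap those of the gene AC245140.3. Replicates were close, and the log2 change of 0.16, SE 0.0336, passed with adjusted p = 0.00226, at 1.11 times the DMSO level. Without AMF replicates 1 and 2 its adjusted p with limma-trend was 0.193 and 0.23. FLNC, the muscle filamin, was low, with 38 and 34 reads in AMF and 8 and 11 reads in DMSO, and rose (1.78, SE 0.388, adjusted p = 0.00243). Taking the 12 family relatives of the 10 genes as a list, 7 rose, 0 fell and 5 did not pass, with a median log2 change of 0.33, beside 15.6% of all tested genes higher and 23.6% of those averaging at least 100.

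**Figure D3:**
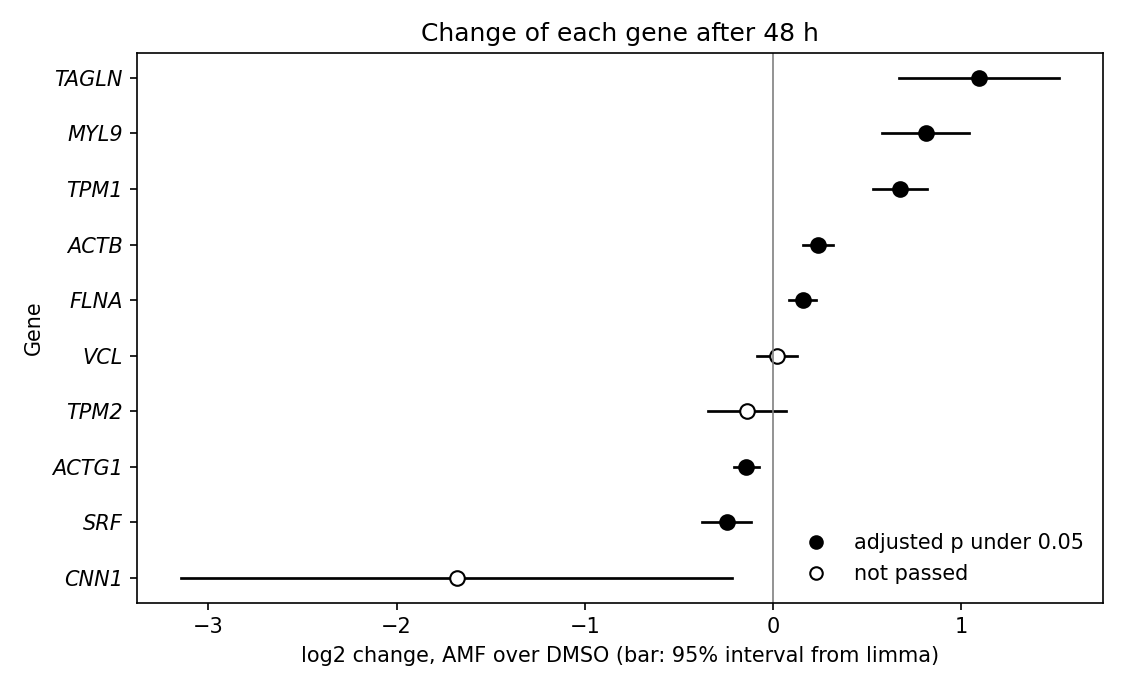
Log2 change of AMF over DMSO for each of the 10 genes with its 95% interval from limma; filled points passed an adjusted p of 0.05 and open points did not. TAGLN, MYL9 and TPM1 lie at 1.09, 0.81 and 0.67, ACTB and FLNA at 0.24 and 0.16, and ACTG1 and SRF below 0 at -0.14 and -0.25.

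Per kilobase of exon, the actins stood far above the other genes. ACTG1 had 26202 normalized counts per kb in AMF and 28905 in DMSO, and ACTB had 25326 in AMF and 21462 in DMSO. FLNA followed with 3244 in AMF and 2912 in DMSO. VCL and SRF overlapped in AMF, with 324 and 346 per kb for VCL and 309 and 329 for SRF, whereas in DMSO VCL had 331 and 329 and SRF 374 and 384. MYL9, TPM1 and TPM2 had 139, 122 and 104 per kb in AMF and 79.0, 76.5 and 115 in DMSO. TAGLN (31.7 in AMF, 14.7 in DMSO) and CNN1 (0.822 in AMF, 3.17 in DMSO) were lowest. Lengths are of all annotated exons joined, which overstates the length of transcripts such as those of TPM1. They were 12876 bases for TPM1, 9992 for VCL and 4202 for SRF. The overstatement was not measured and may differ between genes. The order of the genes, including that of VCL and SRF and of the 2 actins, is therefore approximate.

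Immediate early targets of SRF were mixed. Of 10 genes, 3 rose, 1 fell and 6 did not pass, with a median log2 change of 0.36. That is 40.0% called, beside 31.8% of all tested genes and 54.7% of those averaging at least 100. FOS, a subunit of the AP-1 factor, had 151 and 118.5 normalized counts in AMF, against 46.0 and 54.4 in DMSO (1.40, SE 0.204, adjusted p = 8.48e-05). FOSB, its relative, had 51.1 and 73.1 in AMF and 15.0 and 18.5 in DMSO (1.82, SE 0.315, adjusted p = 4.00e-04). The survival gene MCL1 also rose (0.34, adjusted p = 1.66e-04). NR4A1, an orphan nuclear receptor, fell, with 121 and 104 in AMF and 238 and 228 in DMSO (-1.05, SE 0.142, adjusted p = 4.34e-05). EGR1, a zinc finger factor with at least 1 CArG box in a promoter window, had 356 and 335 in AMF and 243 and 398 in DMSO and did not pass (adjusted p = 0.557). The AP-1 gene JUNB did not pass either, with 517 and 515 in AMF and 306 and 508 in DMSO (0.39, adjusted p = 0.0892). The AMF libraries lay between the DMSO libraries for EGR1 and above both for JUNB. For EGR1 and JUNB the DMSO libraries differed from each other by more than the AMF libraries did.

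Other cytoskeletal and matricellular targets of SRF went both ways. Of 20 genes, 17 were tested, 3 rose, 5 fell and 9 did not pass, with a median log2 change of 0.03. That is 47.1% called, beside 31.8% of all tested genes and 54.7% of those averaging at least 100. Besides ACTA2, DSTN, an actin-severing protein also called destrin, rose, with 5803.5 and 6175 normalized counts in AMF and 3736 and 3307 in DMSO (0.77, SE 0.0576, adjusted p = 1.35e-07). The matricellular gene CCN1 (CYR61 in the table) rose (0.51, SE 0.104, adjusted p = 0.00148), whereas its relative CCN2 (CTGF in the table) fell (-0.42, SE 0.0557, adjusted p = 3.69e-05). FILIP1L fell by most, with 512 and 607 in AMF and 1379.5 and 1572 in DMSO (-1.40, SE 0.0889, adjusted p = 2.47e-08). ANKRD1, an ankyrin repeat protein known as a target of mechanical signalling, had 1492 and 1848 in AMF and 2650.0 and 3040.0 in DMSO (-0.77, SE 0.0867, adjusted p = 7.55e-06). Caldesmon, CALD1, had a log2 change of 0.02 (adjusted p = 0.823) and the myosin kinase MYLK 0.03 (adjusted p = 0.793).

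Among regulators of actin assembly, SSH1, a phosphatase that activates cofilin, rose (0.45, SE 0.0676, adjusted p = 1.22e-04). GSN, gelsolin, which cuts and caps filaments, had 5115 and 4807 normalized counts in AMF and 8997 and 8551 in DMSO and fell (-0.82, SE 0.0465, adjusted p = 7.77e-09), as did the formin DIAPH3 (-0.57, SE 0.0863, adjusted p = 1.16e-04). TMSB4X, the actin-sequestering thymosin beta 4, had 1 and 0 reads in AMF and 0 and 2 reads in DMSO. Of 16 genes of the Arp2/3 complex and its activators, 6 rose, 5 fell and 5 did not pass. That is 68.75% called, beside 31.8% of all tested genes and 54.7% of those averaging at least 100, and the difference was not tested. Cortactin CTTN (0.30) and the subunit ARPC2 (0.29) were highest among the rises, and the WAVE proteins WASF3 (-0.66) and WASF1 (-0.65) lowest among the falls.

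Of 30 tested myosin, crosslinker and focal adhesion genes, 4 rose, 14 fell and 12 did not pass, with a median log2 change of -0.12. That is 60.0% called, near the 54.7% of all genes averaging at least 100. Falls made up 46.7% of the list and rises 13.3%, beside 31.1% and 23.6% of those genes, and the difference was not tested. ZYX, zyxin, a protein of focal adhesions, rose, with 4057 and 3989 normalized counts in AMF and 2989 and 3023.5 in DMSO (0.42, SE 0.0468, adjusted p = 6.99e-06), and the crosslinker ACTN1 rose by 0.34. TNS1, tensin 1, which links integrins to actin, had 29.7 and 19.6 in AMF and 639 and 436 in DMSO (-4.40, SE 0.22, adjusted p = 2.19e-09). Of 15 tested genes of microtubules and intermediate filaments, 6 rose, 2 fell and 7 did not pass. Here 53.3% were called, near the 54.7% of all genes averaging at least 100. The beta-tubulin TUBB6 (1.03, SE 0.0958) and the keratin KRT19 (0.98, SE 0.0488) rose most, LMNB1 (-0.60) and TUBB (-0.19) fell, and VIM, vimentin, had 0 and 1 reads in AMF and 0 in both DMSO libraries. Over 8 lists together, 1 of which is not reported by itself, 41 of 134 tested genes rose and 38 fell (59.0% called), beside 54.7% of all genes that average at least 100. Without AMF replicates 1 and 2, limma-trend called 0 of these and voom 22 and 17, and without DMSO replicate 2 limma-trend called 51.

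**Figure D4:**
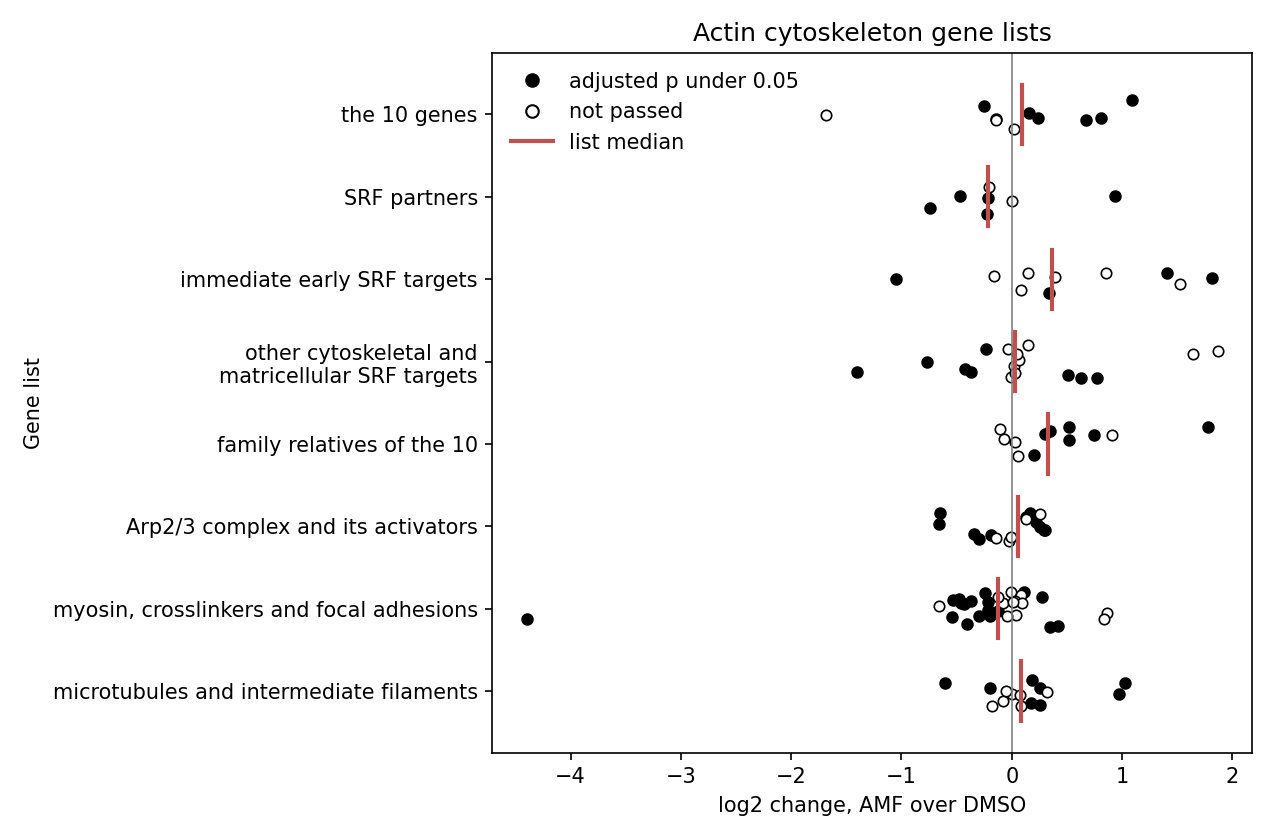
Log2 change of AMF over DMSO for the 10 genes and for the tested genes of 7 further lists; filled points passed an adjusted p of 0.05, open points did not, and red bars are list medians. Medians run from -0.22 for SRF partners to 0.36 for immediate early targets, and the point at -4.40 is TNS1.

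Since TAGLN, MYL9, CNN1 and ACTA2 are also marker genes of smooth muscle cells and fibroblasts, other markers of these cells were read. The 8 smooth muscle and fibroblast markers summed to 120 and 91.7 normalized counts in AMF and 275 and 265 in DMSO, and 4 of the 8 had 3 reads or fewer in every library. Decorin, DCN, had at most 1 read in any library, as did the collagen gene COL1A2. MYH11, the smooth muscle myosin heavy chain, had 64.1 and 44.3 in AMF and 54.0 and 53.4 in DMSO (adjusted p = 0.984), and its exons overlap those of NDE1. COL1A1 (-3.70, adjusted p = 1.16e-06) and PDGFRB (-2.37, adjusted p = 3.23e-05) fell, and without both the other 6 markers summed to 88.2 and 70.1 in AMF and 65.0 and 70.8 in DMSO. Because the 2 left out are those that fell, this second sum is no separate reading of such cells. It is mostly MYH11 and DES, since 4 of the 6 had 3 reads or fewer in every library. DES, desmin, had 21 and 21 reads in AMF and 7 and 16 reads in DMSO (0.87, adjusted p = 0.185), and LUM, lumican, had 3 and 2 reads in AMF and 0 in both DMSO libraries (adjusted p = 0.162). The 4 endothelial markers summed to 296 and 280 in AMF and 151 and 187 in DMSO. Nearly all of this was PECAM1, with 289 and 277 in AMF and 145 and 185 in DMSO (0.79, adjusted p = 3.92e-04). CDH5 had 6 and 3 reads in AMF and 6 and 2 reads in DMSO and did not pass (adjusted p = 0.89). KDR and TEK had at most 1 read in any library. The blood cell markers with a row summed to 37.1 and 24.7 in AMF and 4.998 and 12.3 in DMSO. Of these sums CD14 made up 31.6 and 19.6 in AMF and all in DMSO, and it rose (1.53, adjusted p = 0.0274). The other 3, CD3E, CD68 and HBB, had 3 reads or fewer in every library.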

How the data were processed

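HepG2 RNA was sequenced from poly(A)-selected, non-directional libraries, so strand is lost, per the labels' protocols. The submitters' processing notes name STAR 2.7.0, featureCounts and hg19. For the annotation, the read filters and the normalization, the step is not stated in labels or header. The authors' deposited table holds log2-scale values of 30863 genes, and 0 of its columns belong to other samples. Their shape, with 1 shared lowest value, is what a variance-stabilizing transformation gives. No source states this. It was inverted to normalized counts and to reads, and in each library 100% came out whole within 0.01 reads.

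Because the unit is log2, the planned test for normalized values was used: limma-trend (limma 3.58.1, R 4.3.3) on log2(normalized count + 1), with Benjamini-Hochberg adjustment over the 23828 genes averaging at least 1 normalized count. Fold changes on this scale understate those of low genes. The fit was tested on counts simulated at 1 dispersion, 0.000688, with far fewer changed genes than were called here. It recovered 73.1% of 67 genes changed 1.5-fold, with 4 false calls. The recovery of reads was tested on simulated counts put through the same transformation that it inverts. That test checks the arithmetic and cannot show that the transformation is the right one. The genes and lists were chosen with earlier results of these data known. Named were the 10 genes, every SRF partner in the table, up to 2 rises and 2 falls per list that passed and averaged at least 10, and the 3 genes most like SRF. JUNB, EGR1, MCL1, ELK3, PCSK7, CALD1, MYLK, MYH9, CCN1, CCN2, TMSB4X, VIM, the other actins and markers, and the relatives outside this rule were chosen after their values were seen. List genes without a row were not analysed here, and some list results are not reported here. Gene types, exon lengths and overlaps came from GENCODE release 29, on another build than hg19. Figures were drawn with matplotlib 3.10.9.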

Additional observations from a re-analysis of the deposited data

How the results depend on the processing

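The calls for the 10 genes did not depend on the pseudocount (0.1), the deposited log2 values, no filter, a mean of at least 10 as filter, library totals as scaling, voom on the recovered reads or the replicate number as a block: in these fits 69 of 69 values kept their direction and their side of the threshold. On the deposited log2 values, which compress low counts, the log2 change was 0.55 for TAGLN in place of 1.09 and -0.27 for CNN1 in place of -1.68. CNN1 has a mean under 10 and no value at that filter. Over all genes these fits called 6580 to 8157, beside 7578. Requiring also a log2 change of at least 1, 1 of the 10 genes (TAGLN), 7 of the list genes and 1672 of all genes passed. Labels do not say that a replicate number marks anything shared, and the deviations of same-numbered libraries correlated at 0.0238 over 11137 genes, so the numbers were not taken as pairs. With the replicate block 8157 of all genes, 7 of the 10 genes and 81 of the list genes passed.

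Leaving out 1 library at a time, limma-trend called 0 to 3531 of all genes, 0 to 5 of the 10 genes and 0 to 54 of the list genes, and voom called 1315 to 6776, 0 to 7 and 17 to 85. Without AMF replicates 1 and 2, voom called 1379 and 1315 of all genes, 1 and 0 of the 10 genes and 22 and 17 of the list genes. A lone library is there assumed to vary like the other group. The limma-trend log2 changes ranged from -0.29 to -0.20 for SRF, 0.19 to 0.29 for ACTB, -0.16 to -0.12 for ACTG1, 0.96 to 1.22 for TAGLN, 0.74 to 0.88 for MYL9, 0.60 to 0.74 for TPM1, 0.15 to 0.17 for FLNA, -0.18 to -0.10 for TPM2, -2.29 to -1.07 for CNN1 and -0.0274 to 0.0679 for VCL. The voom ranges ended at -2.60 and -1.17 for CNN1, and without AMF replicates 1 and 2 voom gave 0.25 and 0.23 for ACTB, 1.22 and 0.97 for TAGLN, and 0.68 and 0.67 for TPM1, which no longer passed. The sign of VCL, which was never called, turned without AMF replicate 2, at -0.0274 with limma-trend and -0.0275 with voom. The cause was not tested. Depth limits CNN1, with 23 reads in all, and the low muscle-type actins.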

Other observations

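Actin is often used to normalize measurements of single genes, so other common reference genes were read beside it. Of 12 such genes, 4 rose, 3 fell and 5 did not pass, which is 58.3% called, near the 54.7% of all genes averaging at least 100. GAPDH, a glycolytic enzyme, had 34897 and 34778 normalized counts in AMF and 42123 and 40293.5 in DMSO, and fell (limma log2 change -0.24, SE 0.0352, adjusted p = 8.47e-05), opposite to ACTB (0.24). YWHAZ, a 14-3-3 protein, rose (0.33, SE 0.0404, adjusted p = 1.62e-05), as did B2M, the light chain of MHC class I (0.26, SE 0.0438, adjusted p = 2.91e-04). TFRC, the transferrin receptor, fell (-0.47, SE 0.0455, adjusted p = 1.63e-06). Ribosomal RPLP0 had 42595 and 43279 in AMF and 43188 and 44604.5 in DMSO (-0.03, adjusted p = 0.535), and cyclophilin PPIA had 16791 and 16602 in AMF and 17479.5 and 16171 in DMSO (-0.01, adjusted p = 0.888). For RPLP0 and PPIA the AMF and DMSO libraries overlapped. These calls hold for all libraries together, and without AMF replicate 1 or 2 limma-trend called 0 genes of the table.

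Hepatocyte markers other than ALB also moved. Of 7, 1 rose, 5 fell and 1 did not pass. That is 85.7% called, beside 54.7% of all genes averaging at least 100, and the difference of this small list was not tested. The transcription factor HNF4A rose (0.86, SE 0.0401, adjusted p = 1.1e-09), and APOB (-0.64, SE 0.0307, adjusted p = 1.45e-09) and AFP (-0.61, SE 0.0375, adjusted p = 1.85e-08) fell most.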
